A study of Homo sapiens with 6 samples.

Results

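Pyruvate made by glycolysis in the cytosol is burned in mitochondria, and 10 genes that control its entry were followed here on microarrays of gastric cancer cells given the transcription factor MIST1. They were MPC1 and MPC2, PDHA1, PDHB, DLAT and PDHX, PDK2, PDK3, PDP1, and PC. All single-gene probe sets of these genes were taken, 23 of the 41097 single-gene probe sets on the array, and 10 of 19775 genes. MPC1 was chosen by its values in these data, since it was at least 1.5-fold higher with MIST1 than in both controls in both cell lines, and the other 9 genes were added by function with those values known. Of the 23 probe sets, 22 passed a filter on dim values (more than 50.53, the median of all values, in at least 2 of the 6 arrays), and all 10 genes kept at least 1.

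The tested cells were AGS and HGC-27, established human gastric carcinoma lines, nucleofected with 3 µg of a MIST1 plasmid together with 1.5 µg of a GFP plasmid, sorted for GFP 24 h later and harvested after 24 h more. The GFP control received empty vector and the GFP plasmid and was sorted in the same way. Parental cells received no plasmid, and a sort is described only for transfected cells. Each line gave 1 array per condition, 6 in all, so the 2 lines are the only replicates of a condition, each group is a transient population, and p-values measure the spread between these single arrays.

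Pyruvate crosses the inner mitochondrial membrane through the mitochondrial pyruvate carrier, a complex of MPC1 and MPC2. In the matrix the pyruvate dehydrogenase complex turns it into acetyl-CoA, with E1 subunits from PDHA1 and PDHB, the E2 acetyltransferase from DLAT and the E3-binding protein from PDHX. Kinases such as PDK2 and PDK3 switch the complex off by phosphorylating E1, and the phosphatase with the catalytic subunit PDP1 switches it back on. Pyruvate carboxylase, from PC, instead makes oxaloacetate from pyruvate. MIST1, encoded by BHLHA15, is a basic helix-loop-helix factor of secretory cells, and such factors bind E-boxes, sites of the form CANNTG.

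The values are deposited probe set intensities, set to a floor of 17.6 (the 25th percentile of all values) before log2. Array medians lay between 49.12 and 51.96, and arrays of the same line correlated at 0.971 to 0.996 over the genes tested. The BHLHA15 probe set read 72.5 with MIST1, 75.9 in the GFP control and 66.3 in parental cells in AGS, and 58.7, 61.9 and 41.1 in HGC-27, so it did not separate the conditions and checks no label. The epithelial marker list held in AGS (summed intensity of its 5 genes 39088 to 46067). In HGC-27 KRT8 alone was bright (1350 to 1562), and KRT18, KRT19 and EPCAM read at most 35.8. CDH1 read 75.4 with MIST1, 89.8 in the GFP control and 22.1 in parental cells there. The mesenchymal marker VIM read 12532 to 13731 in HGC-27 and 250 to 298 in AGS. For ZEB1 the values were 1013 to 1227 against 13.6 to 24.9, while CDH2 did not separate the lines (44.4 to 57.6 against 47.0 to 57.5). Summed fibroblast markers read 16853 to 19491 in HGC-27 and 774 to 1429 in AGS. Summed leukocyte markers were at 62.4 to 111 and endothelial markers at 120 to 144 in all 6 arrays.

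Promoter windows of the carrier genes are shown because the series sought direct targets of MIST1 and because MPC1 is the member that stood out with it. A window of PC, which did not stand out, is also shown, the only member window with the E-box CAGCTG. For MPC2 and PC the window shown is the only one of the gene with an E-box. Windows of PDK2 and PDHX, with up to 3 E-boxes, are not shown. The windows run from 250 bases before to 50 bases after a RefSeq gene start (GRCh38.p14), 5′ to 3′ on the gene's strand, with E-boxes in capitals. MPC1 lies at chr6:166382891-166383190 (minus strand), the first of 3 MPC2 windows at chr1:167935947-167936246 (minus strand) and the first of 3 PC windows at chr11:66958334-66958633 (minus strand).
MPC1: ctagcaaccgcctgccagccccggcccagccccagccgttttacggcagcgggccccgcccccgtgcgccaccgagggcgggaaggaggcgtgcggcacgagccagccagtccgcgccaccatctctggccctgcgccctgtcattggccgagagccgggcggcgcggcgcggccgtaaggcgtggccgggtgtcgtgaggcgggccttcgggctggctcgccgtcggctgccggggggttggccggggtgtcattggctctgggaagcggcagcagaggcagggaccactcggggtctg
MPC2: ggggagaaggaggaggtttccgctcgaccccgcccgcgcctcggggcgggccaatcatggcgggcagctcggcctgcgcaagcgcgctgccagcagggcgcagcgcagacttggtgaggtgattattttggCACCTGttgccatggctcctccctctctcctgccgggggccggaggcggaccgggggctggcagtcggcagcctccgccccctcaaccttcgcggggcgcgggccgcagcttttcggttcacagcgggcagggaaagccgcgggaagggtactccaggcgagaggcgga
PC: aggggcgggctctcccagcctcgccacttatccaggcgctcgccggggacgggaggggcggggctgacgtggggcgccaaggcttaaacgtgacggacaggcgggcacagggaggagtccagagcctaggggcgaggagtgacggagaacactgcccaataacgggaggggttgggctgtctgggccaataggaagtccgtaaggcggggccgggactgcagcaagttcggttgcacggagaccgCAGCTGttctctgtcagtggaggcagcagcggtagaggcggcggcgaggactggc

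The MPC1 window held no E-box. Its GC content was 75.7%. The MPC2 window held CACCTG at position -119 from the start, and the PC window held CAGCTG at position -5. The other 2 windows of MPC2 and the other 2 of PC held none. E-boxes (CANNTG reads the same on both strands) occurred in 68.7% of all 35116 windows in the table, and in 9 of the 16 windows of the 9 members that the table holds. CATATG was in 3.04% of all windows and in 0 of these 16, and CAGCTG, which like CATATG is one form of the E-box, was in 17.9% and in 1 of 16. Some windows of a gene overlap, such as those of PDHX, which hold the same 2 E-boxes. By gene, 73.1% of all genes had an E-box in a window, and of the 9 members only MPC1 and DLAT had none. These letters describe the windows only and say nothing about binding.

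With MIST1 the carrier subunit MPC1 was higher than in the GFP control in both lines, while its partner MPC2 and the genes of the dehydrogenase complex stayed within 1.15-fold of the GFP control by the probe set that represents each gene. MPC1 (gene ID 51660, chr6:166364919-166382940 in GRCh38.p14, probe set 218024_at) read 2942 with MIST1, 1877 in the GFP control and 1489 in parental cells in AGS. In HGC-27 it read 3324 with MIST1, 2178 in the GFP control and 1858 in parental cells. In both lines the MIST1 array was the highest and the parental array the lowest, so every MIST1 value lay above all 4 control values. The fold over the GFP control was 1.57 in AGS and 1.53 in HGC-27, and the fold over parental cells was 1.98 and 1.79. These folds chose the gene and are given without a test. In such bulk samples, fewer cells with a transcript and less of it per cell cannot be told apart.

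**Figure D1:**
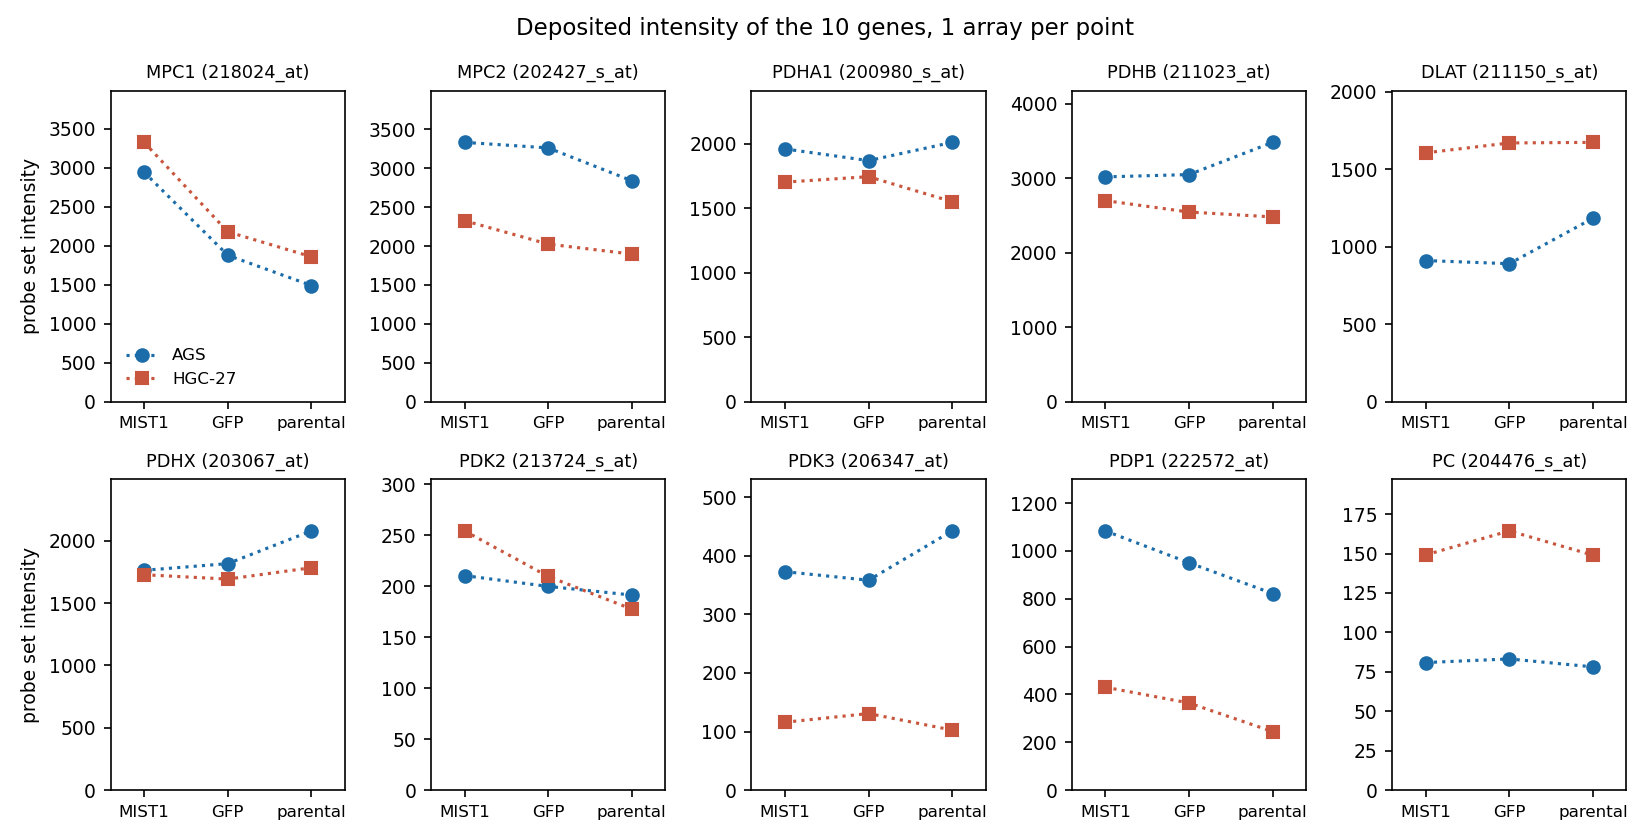
Deposited intensity (y axis, linear, from 0) of the probe set that represents each of the 10 genes, by condition (x axis), with AGS as circles and HGC-27 as squares and dotted lines joining arrays of a line. Each point is 1 array, so there are no error bars. MPC1 reads 2942 and 3324 with MIST1 against at most 2178 in the other arrays, and PDK3 and PDP1 differ more between the lines than between conditions.

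MPC1 was near the limit that picked it. Its lowest fold over any control was 1.53, rank 15 of the 17 genes that passed among the 13738 tested, or 0.124%. To pass or be ranked, a gene also had to read above 50.53, the median of all values, in both MIST1 arrays. Just inside the limit were DISP2 at 1.51 and TMEM132D at 1.51, and just outside were NDRG1 at 1.49 and PIERCE2 at 1.48. The lowest folds of the other 9 members ran from 0.769 for DLAT to 1.14 for PDP1. The other MPC1 probe set, 240362_at, was dim, with 24.0 and 19.0 with MIST1, 11.5 and 19.5 in the GFP control and 19.6 and 17.1 in parental cells (AGS, then HGC-27). It did not pass the filter and did not repeat the pattern, since its HGC-27 value with MIST1 lay below that of the GFP control.

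MPC2, the other carrier subunit, read 3333 with MIST1, 3262 in the GFP control and 2840 in parental cells in AGS, and 2326, 2025 and 1897 in the same order in HGC-27. Its order of conditions was the same as that of MPC1 in both lines, but the fold over the GFP control was only 1.02 and 1.15. A second MPC2 probe set, 227669_at, read 170 with MIST1 and 190 in the GFP control (AGS), and 169 with MIST1 and 152 in the GFP control (HGC-27), so the lines went opposite ways there. After centring each line on its mean, MPC1 and MPC2 correlated at 0.91 (Pearson r) over the 6 arrays, with an SD of 0.42 for MPC1 and 0.12 for MPC2 on the log2 scale. The 6 arrays include the ones that chose MPC1, so the correlation is a description.

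Among the subunits of the dehydrogenase complex, MIST1 and GFP control arrays lay close together. For PDHA1, the catalytic E1 alpha subunit, AGS read 1960 with MIST1 and 1869 in the GFP control, and HGC-27 read 1702 and 1745. PDHB, E1 beta, was at 3017 and 3048 in AGS, while HGC-27 read 2698 and 2546. DLAT, the E2 enzyme, was at 911 and 890 in AGS, while HGC-27 read 1605 and 1669. By these probe sets none of the 3 kept 1 direction in both lines, and neither did PDHX, the E3-binding protein, with AGS at 1763 and 1816 and HGC-27 at 1727 and 1692. Others did, by small amounts. PDHB 208911_s_at was higher in both lines (log2 difference 0.06 in AGS, 0.14 in HGC-27), and PDHA1 200979_at (-0.11, -0.11), DLAT 212568_s_at (-0.05, -0.10) and DLAT 213149_at (-0.23, -0.11) were lower in both. The mean log2 differences of the 4 genes by the representing probe sets ran from -0.01 for DLAT to 0.03 for PDHB.

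The regulators differed by a little more. PDP1, the activating phosphatase, read 1084 with MIST1, 951 in the GFP control and 822 in parental cells in AGS, and 430, 364 and 245 in HGC-27, the same order of conditions as MPC1. Its second probe set gave 377 with MIST1, 360 in the GFP control and 417 in parental cells in AGS, and 177, 156 and 114 in HGC-27, so in AGS it placed the parental array highest. PDK2, an inhibitory kinase, was at 211, 200 and 191 in AGS, while HGC-27 read 254, 210 and 178, again in that order, and its second probe set gave the same order (162, 160 and 143, and 192, 155 and 122). The mean log2 difference between MIST1 and GFP control was 0.21 for PDP1 and 0.18 for PDK2, against 0.63 for MPC1 and a median of -0.02 over all genes tested. With 1 array left out in turn it ran from 0.10 to 0.33 for PDP1 and from 0.03 to 0.32 for PDK2, and from 0.58 to 0.67 for MPC1. PDK3, a kinase of the same family, read 373 with MIST1 and 358 in the GFP control for AGS, against 116 and 131 for HGC-27. PC, the carboxylase, was the one member whose representing probe set was lower in both lines, with 80.9 against 83.2 for AGS and 149 against 164 for HGC-27.

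Over the 10 members, 4 were higher and 1 was lower with MIST1 than in the GFP control in both lines (24.5% and 32.7% of all genes tested), and the median log2 difference was 0.03. By probe set, 8 of 22 were higher and 6 lower (22.9% and 33.5% of all probe sets past the filter). In the limma fit of all 6 arrays with cell line as a block, 0 of 10 members were called at a Benjamini-Hochberg adjusted p under 0.05 in this comparison, as were 0 of all genes tested (0%). At an unadjusted p under 0.05 there were 184 of 13738 genes (1.34%). A fit of only the 4 arrays compared called 59 genes (0.429%), with MPC1 the only member among them. Against parental cells, 1 member, again MPC1, and 467 genes (3.4%) were called in the 6-array fit. With every probe set fitted on its own, 3 member probe sets were called against parental cells, MPC1 218024_at higher and DLAT 213149_at (-1.04) and PDK3 230085_at (-1.28) lower, where 806 of 25954 (3.11%) were. Both comparisons chose MPC1, so nothing is read from these counts.

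**Figure D2:**
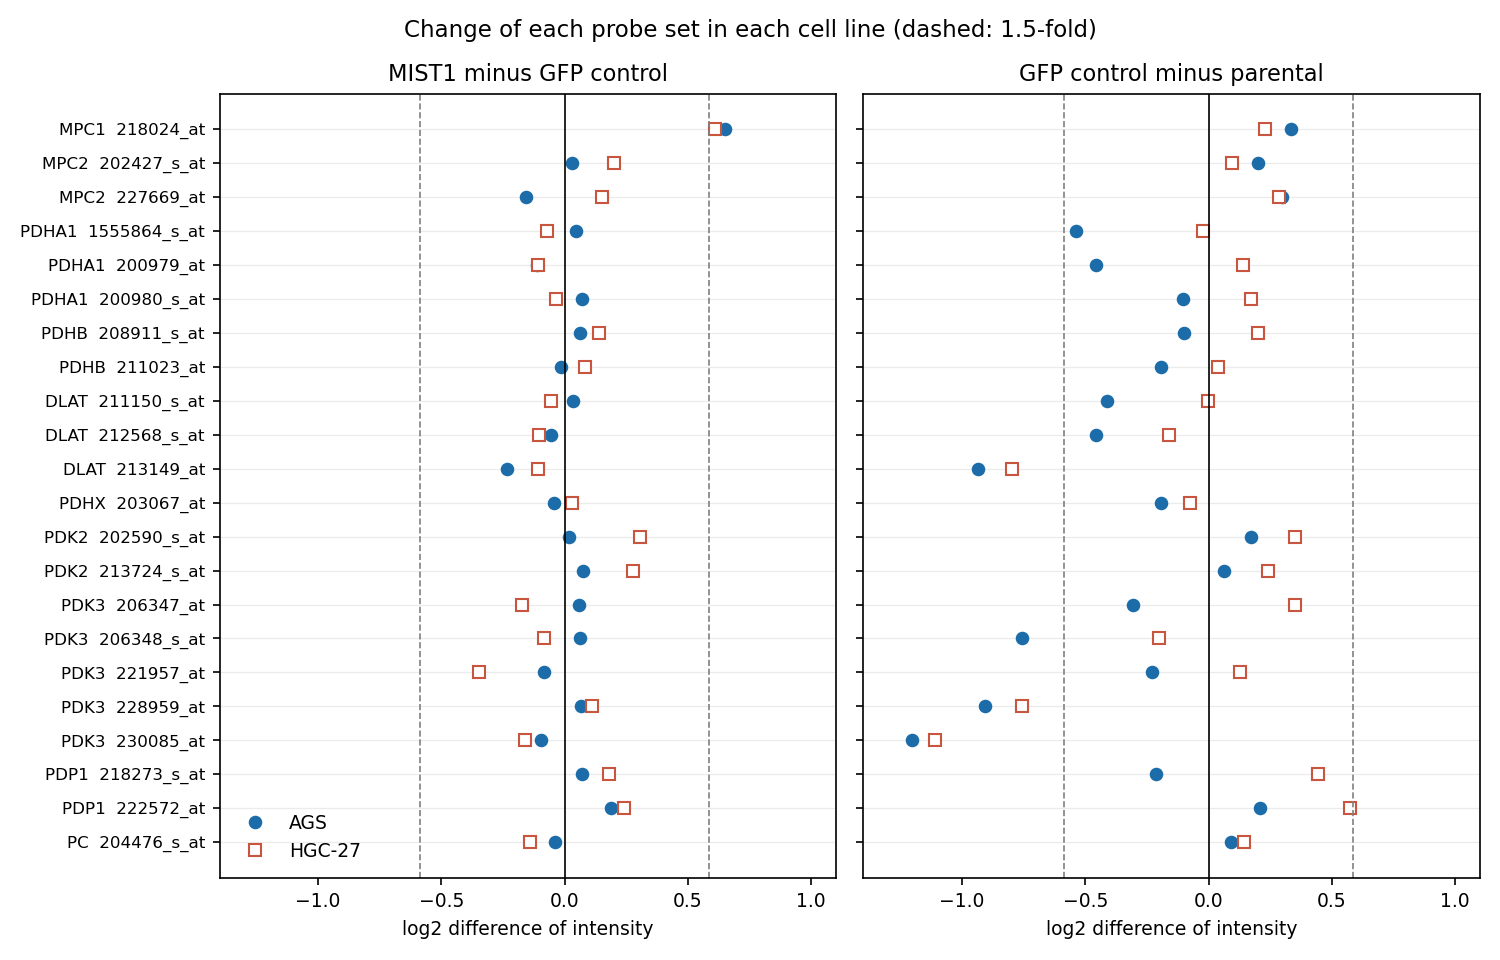
Log2 difference of intensity (x axis) for each of the 22 probe sets past the filter (rows), in AGS (filled circles) and HGC-27 (open squares), 1 array against 1 array, with dashed lines at 1.5-fold. On the left, MIST1 minus GFP control, MPC1 alone lies past 1.5-fold in both lines. On the right, GFP control minus parental, 1 DLAT and 2 PDK3 probe sets lie past it on the lower side.

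In the GFP control against parental cells most members differed by small amounts, and some probe sets by large ones. This contrast was not itself used to choose the genes, although both groups were controls in that choice. MPC1 was 1.26-fold higher in AGS and 1.17-fold in HGC-27, a mean log2 difference of 0.28 (SE 0.09, 95% interval 0.07 to 0.49, limma adjusted p = 0.131). PDP1 was higher by 0.39 (SE 0.15, 95% interval 0.03 to 0.75, limma adjusted p = 0.187), with 0.21 in AGS and 0.57 in HGC-27. For MPC2 the mean was 0.15 (SE 0.08), for PDK2 0.15 (SE 0.16) and for PC 0.12 (SE 0.16). DLAT was at -0.21 (SE 0.13) and PDHX at -0.14 (SE 0.10), and 5 members were higher and 2 lower in both lines (37.3% and 23.5% of all genes tested). By probe set, 7 of 22 were higher and 8 lower (36.6% and 23.8% of all probe sets).

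By this test 0 of 10 members passed, where 37 of 13738 genes (0.269%) did. At an unadjusted p under 0.05 there were 2 members, MPC1 and PDP1, and 23.2% of all genes. With the AGS parental array left out 2 members passed, MPC1 at 0.22 and PDP1 at 0.59, in a fit that called 5337 genes. With that of HGC-27 left out 4 passed, MPC1 at 0.34, PDHB at -0.22, DLAT at -0.39 and PDHX at -0.21, in a fit that called 4599. Over all genes tested the median log2 difference was 0.07.

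Probe sets of the same gene disagreed in this comparison. The 5 PDK3 probe sets had mean log2 differences from -1.16 to 0.02. By 230085_at, PDK3 read 104 in the GFP control and 239 in parental AGS cells, and 28.7 against 62.0 for HGC-27, with 96.9 and 25.7 in the MIST1 arrays. By 206347_at, the brightest, it read 358 against 443 for AGS, and 131 against 103 for HGC-27. So the first placed the parental array well above both transfected arrays in both lines, and the second placed it above them in AGS and below them in HGC-27. DLAT showed a like split, with -0.87 (SE 0.13) by 213149_at, which read 438 in the GFP control and 839 in parental AGS cells and 578 against 1006 for HGC-27, and -0.21 (SE 0.13) by 211150_s_at.

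When every probe set was fitted on its own, 0 of 22 member probe sets passed, where 171 of 25954 (0.659%) did, and 7 of the 22 had an unadjusted p under 0.05, as did 22.9% of all probe sets. The nearest were DLAT 213149_at (limma adjusted p = 0.0506), PDK3 230085_at (limma adjusted p = 0.0537) and PDK3 228959_at at -0.83 (limma adjusted p = 0.0633). In both lines these 3 of the 22 probe sets were at least 1.5-fold lower after control transfection. The like share of all 25954 probe sets was not counted, so whether 3 of 22 is unusual was not tested. By the probe set that represents the gene, 0 of 10 members were past 1.5-fold the same way in both lines. Of all genes tested, 648 of 13738 (4.72%) were. Other array features moved with this contrast. The middle probe set of 18S ribosomal RNA read 48.2 in the GFP control and 1142 in parental AGS cells, and 52.0 against 371 for HGC-27. It was the most extreme of the 3. The 3′ one read 809 against 1791 for AGS and 776 against 1315 for HGC-27. The 5′ one read 63.1 against 566 for AGS and 109 against 141 for HGC-27. By contrast, the 6 GAPDH and ACTB control probe sets differed by -0.02 to 0.16 on the log2 scale. The part of these features in the split between probe sets was not tested.

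Of the members, PDK3 and PDP1 differed most between the lines. PDK3 was 3.36-fold higher in AGS than in HGC-27, with 373, 358 and 443 for AGS and 116, 131 and 103 for HGC-27 (MIST1, GFP control, parental). The log2 difference was 1.75 (SE 0.16, 3 conditions per line, limma adjusted p = 0.000111), and all 5 PDK3 probe sets were higher in AGS, by 1.65 to 2.21. PDP1 was 2.80-fold higher in AGS, at 1.49 (SE 0.12, limma adjusted p = 7.02e-05), with 1084, 951 and 822 in AGS against 430, 364 and 245 in HGC-27. For both genes the lowest AGS array was above the highest HGC-27 array. PDK2, in contrast, had overlapping lines and a log2 difference of -0.08 (95% interval -0.40 to 0.24, limma adjusted p = 0.641).

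PC and DLAT were lower in AGS. PC read 80.9, 83.2 and 78.2 in AGS against 149, 164 and 149 for HGC-27, a log2 difference of -0.93 (SE 0.13, limma adjusted p = 0.00102). DLAT read 911, 890 and 1183 in AGS against 1605, 1669 and 1673 for HGC-27, at -0.74 (SE 0.11, limma adjusted p = 0.000943), and its other 2 probe sets were also lower, at -0.59 and -0.40. The lines did not overlap for either gene. The carrier subunits went opposite ways, MPC2 at 0.60 (SE 0.07, limma adjusted p = 0.000336) and MPC1 at -0.24 (SE 0.07, limma adjusted p = 0.0248). The second MPC2 probe set, 227669_at, was at 0.21 (SE 0.14, limma adjusted p = 0.219). The MPC1 call was lost without condition as a term (limma adjusted p = 0.525) and without the variance trend (0.0896), as well as without any 1 of the MIST1 or GFP control arrays (0.124 to 0.172), and its MIST1 value in AGS was higher than both controls in HGC-27.

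**Figure D3:**
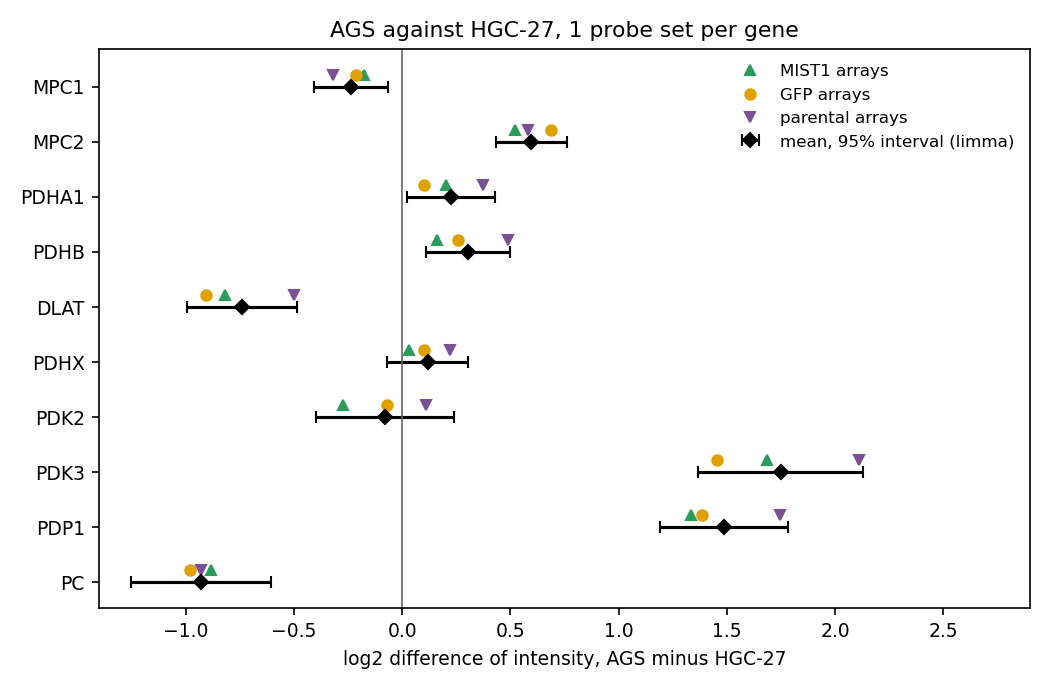
Log2 difference of intensity, AGS minus HGC-27 (x axis), for each gene (rows), with diamonds and bars for the mean over 3 conditions and its 95% interval from limma, and triangles and circles for each condition. PDK3 and PDP1 lie at 1.75 and 1.49, PC and DLAT at -0.93 and -0.74, and the intervals of PDHX and PDK2 include 0.

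The E1 subunits were slightly higher in AGS, PDHB by 0.30 (SE 0.08, limma adjusted p = 0.0159) and PDHA1 by 0.23 (SE 0.08, 95% interval 0.02 to 0.43, limma adjusted p = 0.0551). The PDHB call was lost with quantile normalization, with no filter and with no variance trend (0.0693 to 0.112). PDHA1 passed once either parental array was left out (0.0239 and 0.0242). PDHA1 probe sets disagreed here, since 200979_at was lower in AGS, with AGS minus HGC-27 at -0.48 (SE 0.16). PDHX was at 0.12 (95% interval -0.07 to 0.30, limma adjusted p = 0.234). In all, 7 of 10 members passed, 4 higher and 3 lower in AGS, where 8263 of 13738 genes (60.1%) passed. With every probe set as a feature, 16 of 22 passed, 10 higher and 6 lower, where 59.8% of all did. The share of members is close to that background, so it is no result about this group. These tests take the 3 arrays of each line as its replicates.

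Genes around the pyruvate entry step were followed in 6 lists of 66 genes, of which 54 had a single-gene probe set and 52 passed the filter. With MIST1 against the GFP control 0 of 52 passed in the 6-array fit, 11 were higher and 20 lower in both lines (21.2% and 38.5%, against 24.5% and 32.7% of all genes), and the median log2 difference was -0.03, against -0.02 over all genes tested. Of the rest of the dehydrogenase machinery, DLD, the E3 subunit, was at 0.04 (SE 0.10) and PDPR, the regulatory subunit of the phosphatase, at 0.06 (SE 0.12). The kinases PDK1 and PDK4 were at -0.20 (SE 0.22) and 0.20 (SE 0.24). The one gene called in the 4-array fit, named after its values were seen, was BCKDK, the kinase of the branched-chain 2-oxoacid dehydrogenase and a relative of the pyruvate dehydrogenase kinases (limma adjusted p = 0.00975). BCKDK read 1182 with MIST1, 881 in the GFP control and 866 in parental cells in AGS, and 1696, 1195 and 602 in HGC-27.

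**Figure D4:**
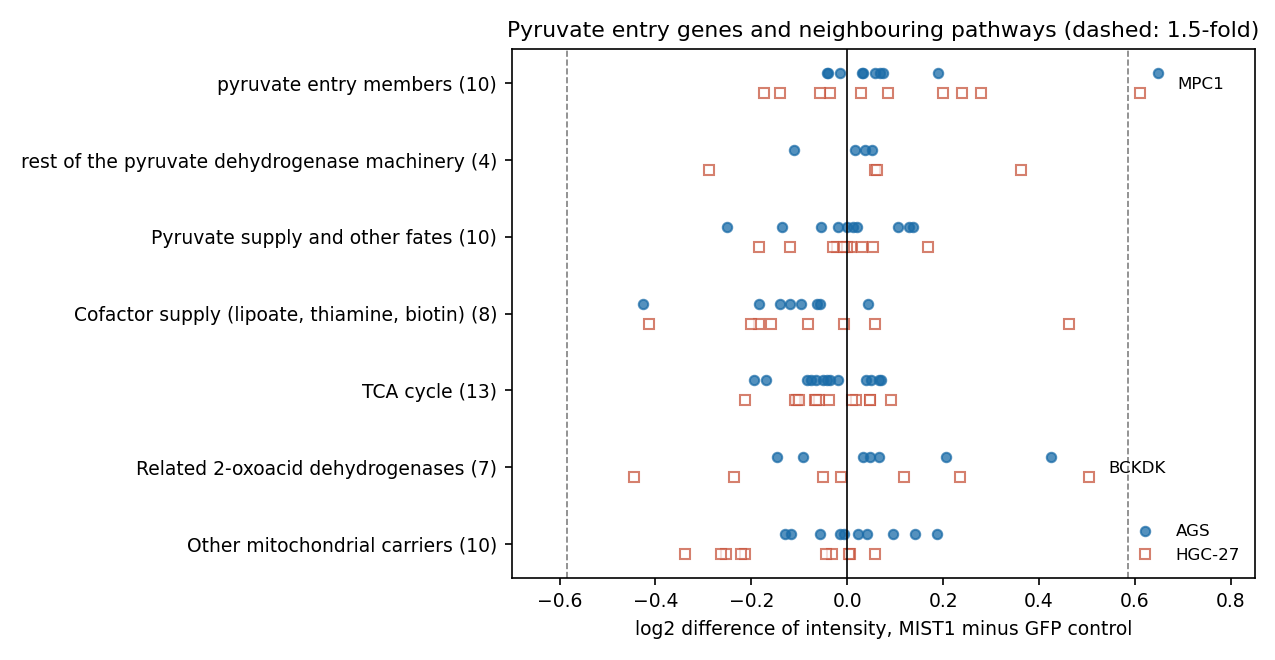
Log2 difference of intensity, MIST1 minus GFP control (x axis), for the 10 members and 6 lists of neighbouring genes (rows, number of genes measured in brackets), with AGS as filled circles and HGC-27 as open squares and dashed lines at 1.5-fold. MPC1 at 0.65 and 0.61 is the only gene drawn past 1.5-fold in both lines, and BCKDK follows at 0.42 and 0.51.

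Against parental cells 3 of the 52 neighbouring genes passed with MIST1. PKM, the pyruvate kinase that makes pyruvate, rose by 0.40 (SE 0.06, limma adjusted p = 0.0407), with 8392 against 6060 in AGS and 5761 against 4612 in HGC-27. DBT, the E2 enzyme of the branched-chain complex, fell by 0.63 on the log2 scale (SE 0.10, limma adjusted p = 0.0407), by an _x_at probe set, a type that may also bind other transcripts, and 3 of its 4 other probe sets past the filter were higher with MIST1 in HGC-27. SDHC, a subunit of succinate dehydrogenase, fell by 0.41 on the log2 scale (SE 0.08, limma adjusted p = 0.0475), while 3 of its 5 other probe sets past the filter were higher with MIST1 in HGC-27. In GFP control against parental cells 0 of 52 passed, and DBT was at -0.77 (SE 0.10, limma adjusted p = 0.0502), the 1 gene of these lists past 1.5-fold the same way in both lines. In that comparison PKM was at 0.31 (SE 0.06) and SDHC at -0.28 (SE 0.08), the same directions as with MIST1 against parental cells. With MIST1 against the GFP control, PKM was at 0.08 (SE 0.06), SDHC at -0.14 (SE 0.08) and DBT at 0.13 (SE 0.10). None of the 3 calls held with a median floor, no filter or no variance trend. None held with the mean of all probe sets or without cell line as a block. In both comparisons with parental cells, more of the 52 passed once either parental array was left out. Without the AGS parental array, more of all genes tested passed as well, so nothing is read from this about these lists.

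Between the lines 30 of the 52 passed, 9 higher and 21 lower in AGS, again near the 60.1% of all genes. By list, 8 of 10 genes of pyruvate supply passed, 3 of 8 of cofactor supply, 10 of 13 of the TCA cycle, 4 of 7 of the related dehydrogenases, 5 of 10 of the other carriers and 0 of 4 of the rest of the dehydrogenase machinery. Of the malic enzymes, which make pyruvate from malate, ME1 and ME2 were lower in AGS and ME3 was higher. ME2 read 773, 803 and 1066 in AGS against 1611, 1552 and 1664 for HGC-27 (MIST1, GFP control, parental). ME1 read 25.01, 22.9 and 12.1 in AGS against 1490, 1522 and 2114 for HGC-27, and ME3 read 315, 293 and 205 in AGS against 12.3, 9.15 and 12.2 for HGC-27 (MIST1, GFP control, parental). SLC16A7, a monocarboxylate transporter, read at most 8.98 in AGS and at least 367 in HGC-27 by 207057_at, and over all 5 of its probe sets past the filter at most 35.4 in AGS and at least 101 in HGC-27. The thiamine transporter SLC19A2 read 1391, 1512 and 1295 in AGS against 303, 291 and 289 for HGC-27. Values under the floor of 17.6 make the log2 differences of ME1 (-6.29), ME3 (3.92) and SLC16A7 (-4.53) understated.

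The genes whose pattern over the 6 arrays was most like that of MPC1, after centring each line, were PIERCE2 (Pearson r = 0.997), FIGN (0.986), IQCN (0.977), RAB26 (0.975) and TIFA (0.975), out of 2756 genes with a centred SD of at least 0.3. PIERCE2 read 133 with MIST1, 89.5 in the GFP control and 74.8 in parental cells in AGS, and 110, 73.5 and 67.6 in HGC-27. All 5 had their highest value with MIST1 in both lines. Among the members, the same measure was 0.84 for PDP1, 0.81 for PDK2, -0.62 for DLAT and -0.69 for PDHX. With 6 arrays of 3 conditions these values describe the arrays and carry no test.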

How the data were processed

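RNA from 2 gastric cancer lines was hybridised to 6 one-colour Affymetrix arrays, from 5 µg of total RNA each per the labels' protocols. The authors deposited 1 linear intensity per probe set and array (54675 probe sets, 0.48 to 19070.5). The series design text names dChip, but the background correction and scaling behind the deposited intensity values are not given in the sources used here. Probe sets were named through the platform annotation, with 41043 symbols updated by gene ID, and the 1801 with several genes were not used. Values were floored at 17.6, taken to log2, filtered (above 50.53 in at least 2 arrays) and reduced to the brightest probe set per gene, 13738 genes. limma 3.58.1 in R 4.3.3 (lmFit, eBayes with trend) used cell line and condition as additive terms, with 2 residual and 4.47 prior degrees of freedom, two-sided, Benjamini-Hochberg over all genes. Cell line is a block because the design text sets each transfected population against its own controls, and the labels name the line of each array. The fit was run on simulated data with independent noise of equal size and changes shared by all arrays of a group. The real arrays need not follow that, so the run does not check the calls made here.

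The members and gene lists were chosen with earlier results of these data known. Named genes were all members, the 5 genes most like MPC1, the genes next to MPC1 at the fold limit, and neighbouring genes past a test or 1.5-fold in both lines. Of the last, at most 4 per list and comparison were named, and between the lines not all such genes. DLD, PDPR, PDK1 and PDK4 were named by function and met neither limit. Fold differences between single arrays have no replicate. Alternatives were other floors, quantile normalization, no filter, other probe set rules, no trend, no block, fewer arrays and each array left out. The number of arrays limits the precision. Promoter windows are from RefSeq (GRCh38.p14), which here held 9 of the 10 genes.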

Additional observations from a re-analysis of the deposited data

Results flagged for a closer look

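PDK3 was singled out because its AGS and HGC-27 values moved in opposite directions by at least 1.1-fold in each line. GFP control minus parental was -0.30 in AGS and 0.35 in HGC-27 on the log2 scale, a difference between the lines of -0.66. MIST1 minus parental, which shares the parental arrays, was -0.25 and 0.18, a difference of -0.42. With 1 array per line and condition the difference was not tested. The other PDK3 probe sets did not all share it, since by 230085_at GFP control minus parental was -1.20 in AGS and -1.11 in HGC-27.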

How the results depend on the processing

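The counts of members and of neighbouring genes that passed depended on the arrays in the fit, and the cause was not tested. For MIST1 against the GFP control both were 0, and 1 with only the 4 arrays compared, with a range of 0 to 1 when each array was left out in turn. For MIST1 against parental cells 1 member passed, against 0 with a median floor, no filter, no variance trend or no replicate block. After quantile normalization 2 passed, and with every probe set a feature 3 did, 1 higher and 2 lower. More passed with some single arrays left out. The 3 neighbouring genes of that comparison became 0 under the same 4 settings and with the mean of all probe sets, and 5 with only the 4 arrays compared (2 to 25). For the GFP control against parental cells 0 members passed in every setting that kept all arrays of the comparison, with 0 to 4 when an array was left out. The 0 neighbouring genes became 1 after quantile normalization and with every probe set a feature, and 3 with only the 4 arrays compared. Here too the count rose with either parental array left out. For AGS against HGC-27 the 7 members became 5 to 8 over all settings and the 30 neighbouring genes 24 to 45 (6 to 8 and 26 to 45 with an array left out). With no replicate block the MPC1 call against parental cells was thus lost, and so was that between the lines (adjusted p = 0.525).

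The lowest MPC1 fold of 1.53 was 0.972 by its dim second probe set. Signs turned for members near 0. GFP control minus parental turned for PDK3 from 0.02 to -0.0091 after quantile normalization and to -0.50 with the mean of all probe sets, and for PDHA1 from 0.03 to -0.13 with that mean. With an array left out it ran from -0.25 to 0.29 for PDK3, -0.0793 to 0.144 for PDHA1 and -0.216 to 0.0625 for PDHB. AGS minus HGC-27 turned for PDHX to -0.0526 after quantile normalization and ran from -0.171 to 0.0196 for PDK2.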
